A study of Mus musculus with 12 samples.

Results

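The transcriptome of wild-type lens cells (LCs) at the moment of experimental cataract surgery was described from the 3 libraries labelled WT at 0 h post cataract surgery (PCS), out of 12 libraries in the series. The members were chosen by label alone, and no group was compared with another. The mice were WT animals of the C57BL/6 strain, adults of 2 months. Fiber cells had been removed through an incision in the cornea, and what was frozen was the lens capsule with the cells still attached to it. Each library pooled 5 capsules, so a library gives the average of several lenses. The group holds no lens without surgery and no agent was given, and the other 9 libraries, from WT LCs at 24 h and from lenses deleted for the integrin gene Itgb8 at 0 h and 24 h, were not used.

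The lens is a closed ball of epithelium inside its own basement membrane, the capsule. A single layer of epithelial cells lines the front of the capsule, and cells near the equator leave the cell cycle, elongate into fibers and fill with crystallins, the proteins that give the lens its refractive power. The tissue has no blood vessels, so glucose enters from the aqueous humor and ions, water and small solutes are circulated by sodium pumps, aquaporins and gap junctions.

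Levels are in FPKM, fragments scaled to transcript length and to the mapped fragments of a library, as deposited for each library. This unit is per transcript length, so levels of different genes may be set side by side. Values are given in the order of replicates 1, 2 and 3, genes are ranked by the median of the 3 values, and a gene was counted as expressed when it had at least 2 FPKM in every library. In RNA from whole capsules, fewer cells of a type and less RNA per cell cannot be told apart. Of 21282 nuclear protein-coding genes among the 45859 genes of the table, 8618 (40.5%) were expressed and 4365 were listed at 0 in all 3 libraries. Counts of expressed members in the lists below are to be read beside this 40.5%, and a count near it says little about a list. Among the expressed genes, 5221 had a median of 2 to 10 FPKM, 3208 lay between 10 and 100 FPKM, 176 lay between 100 and 1000 FPKM, and 13 exceeded 1000 FPKM. The median over genes of the SD of log2(FPKM + 1) between libraries was 0.17. Across the 8618 expressed genes, Pearson's r of log2(FPKM + 1) was 0.972 for replicates 1 and 2, 0.975 for replicates 1 and 3 and 0.959 for replicates 2 and 3. These correlations are across genes, which are not independent replicates.

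The libraries held markers of both lens epithelium and fiber cells. All 13 marker genes of the epithelium were expressed. Pax6, the master transcription factor of eye development, had 88.6, 89.4 and 93.5 FPKM. Foxe3, a forkhead factor that lens epithelial cells need to survive and divide, had 78.05, 74.6 and 70.4 FPKM. The 2 highest markers were Cryab with 11799.6, 13173 and 9870.3 FPKM and the secreted glycoprotein gene Dkk3 with 577, 699 and 585 FPKM. All of these varied little between libraries beside the distance between the genes. Markers of fiber cells were present in the same RNA, 14 of 16 being expressed, with Crygs (3456, 3910.0 and 2777 FPKM) and the beaded filament gene Bfsp1 (326, 304 and 210.0 FPKM) the highest. The 2 markers that were not were Birc7 with 2.92, 1.74 and 1.52 FPKM and Dnase2b, the nuclease that degrades DNA in maturing fibers, with 0.635, 1.63 and 0.245 FPKM. The summed level of the epithelial list was 13050, 14531 and 11123 FPKM, and that of the fiber list was 5392, 5826 and 4380 FPKM. Cryab held 90.5% of the summed medians of the epithelial list and Crygs held 65.0% of those of the fiber list. The 2 sums therefore do not rank the 2 cell types.

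RNA of other eye tissues was also measurable, and 1 kind differed widely between libraries. Of 12 markers of photoreceptors and retina, 11 were expressed and 12 of 12 were highest in replicate 2 and lowest in replicate 3. Sag, the rod arrestin gene, had 92.1, 281 and 36.8 FPKM, and Gnat1, the rod transducin gene, had 76.7, 227 and 29.9 FPKM. The summed level of the list was 378, 1272 and 152 FPKM, and its members were at a median of 8.05 times the level in replicate 2 that they had in replicate 3. The same ratio over all expressed protein-coding genes had a median of 1.16. Of those genes, 56.8% were highest in replicate 2, 27.3% in replicate 1 and 15.8% in replicate 3, and 58.3% were lowest in replicate 3, so these orders alone are common. Pigment cell markers of iris and ciliary body, 5 of 7 expressed, were highest in replicate 1 and summed to 107, 46.5 and 36.5 FPKM, led by Oca2 (22.8, 18.2 and 16.6 FPKM) and Dct (39.9, 12.8 and 10.1 FPKM). Red blood cell markers, 4 of 6 expressed, summed to 153, 73.7 and 68.0 FPKM, with Hba-a1 (60.1, 29.8 and 34.5 FPKM) and Hba-a2 (58.4, 26.9 and 23.3 FPKM) the highest. Of the 100-base windows in their longest coding transcripts, 56.5% for Hba-a1 and 74.5% for Hba-a2 occur in another gene, mostly each other. For the other expressed pair, Hbb-bs and Hbb-bt, it was 62.6% and 54.8%, so the single values of these 4 genes are uncertain. The part of such RNA in the level of any other gene was not tested.

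Most of the remaining markers were low. Of 7 neutrophil markers, none was expressed and 5 were listed at 0 in every library, and the sum of the list was 0.453, 0.327 and 0.580 FPKM. The highest was Cxcr2 with 0.29, 0.327 and 0.58 FPKM, followed by Retnlg, which was listed above 0 in replicate 1 only. Macrophage markers had 2 of 8 expressed, Lyz2 with 5.69, 6.51 and 3.77 FPKM and the complement gene C1qc with 4.54, 4.50 and 2.46 FPKM, and a sum of 21.5, 22.6 and 11.7 FPKM. No endothelial marker of 6 was expressed, the highest being Kdr with 1.25, 3.79 and 0.423 FPKM and Vwf with 0.485, 0.534 and 0.249 FPKM. For corneal epithelium 2 of 7 markers were expressed, Aldh3a1 with 264, 208 and 248 FPKM and Krt15 with 2.72, 4.66 and 3.79 FPKM. The keratin genes that define that tissue were near or at 0, with Krt12 at 1.27, 0.0792 and 0.117 FPKM and Krt14 at 0, 0.0237 and 0.07 FPKM, except Krt5, which reached the threshold in replicate 1 with 3.17, 0.152 and 0.858 FPKM. The sum of 271, 213 and 253 FPKM was nearly all from Aldh3a1, a gene of an aldehyde dehydrogenase also known as a corneal crystallin. Stromal and fibroblast markers had 2 of 7 expressed, Pdgfra (23.7, 23.3 and 27.4 FPKM) and Col1a2 (10.5, 17.95 and 10.6 FPKM), while Kera and Lum, which define corneal stroma, did not reach 0.2 FPKM in any library. In the smooth muscle list 1 of 5 was expressed, Pdgfrb with 10.4, 11.3 and 10.9 FPKM, ahead of Myh11 with 3.37, 1.91 and 1.03 FPKM.

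**Figure D1:**
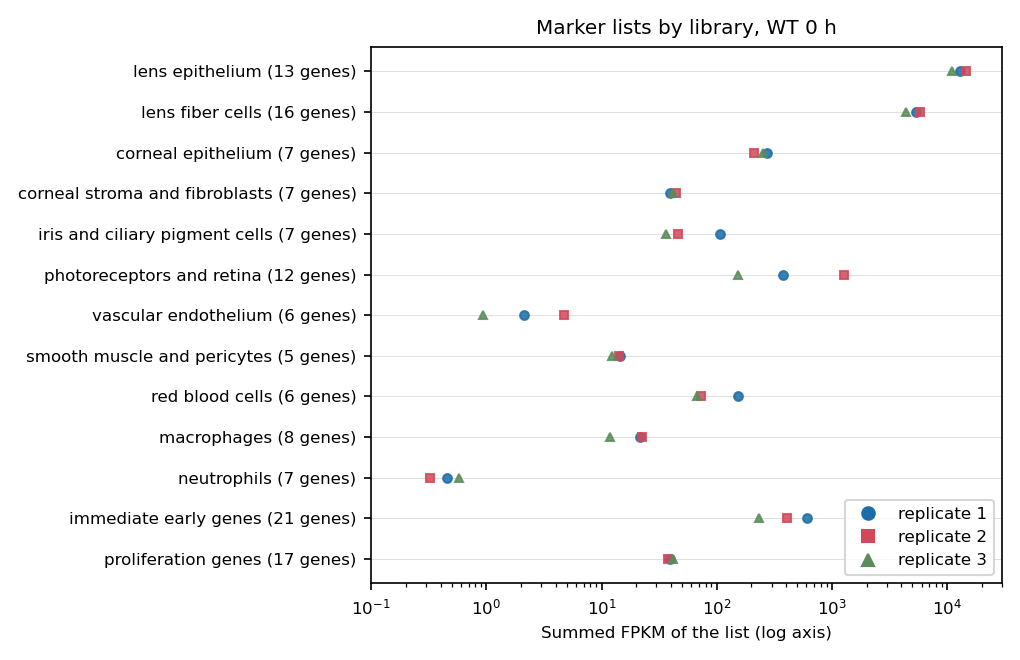
Summed FPKM of each marker list (log axis) in the 3 WT 0 h libraries, 1 symbol per library, with the number of genes found in the table beside each list. The photoreceptor list spans 152 to 1272 FPKM, while the lens epithelium list spans 11123 to 14531 FPKM and the neutrophil list stays under 1 FPKM.

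A few genes held much of the protein-coding signal. The 10 highest nuclear protein-coding genes took 36.8%, 29.1% and 34.4% of the FPKM summed over all nuclear protein-coding genes, a mean of 33.5% ± 3.93 (SD, n = 3). The 100 highest took 50.8%, 44.7% and 48.5%, a mean of 48.0% ± 3.07 (SD, n = 3). Crystallins filled 7 of the first 10 places and 9 of the first 30. The shares in replicate 2 lack Cryaa, which was listed at 28167, 0 and 24296 FPKM. Where a gene is this abundant in the other libraries, a 0 may be a failed estimate, and the value is given as listed. Among genes with a median of at least 20 FPKM, 9 were listed at 0 in exactly 1 library, and Cryaa was the only 1 of them that codes for protein. The others included the long non-coding RNA Malat1, with 3574, 2685 and 0 FPKM, and 7 short RNAs.

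Crystallin transcripts summed to 36.1%, 28.7% and 33.6% of nuclear protein-coding FPKM. With Cryaa left out of both the sum and the total, the share was 28.0%, 28.7% and 25.2%, a mean of 27.3% ± 1.86 (SD, n = 3), an alternative added after the data were seen. The 2 α-crystallins are small heat shock proteins that keep other proteins from aggregating, and the β- and γ-crystallins are structural. By class, the 6 β-crystallins took 18.5%, 21.3% and 16.1%, the 8 γ-crystallins took 1.73%, 2.07% and 1.79%, and α-crystallins took 15.9%, 5.38% and 15.7%, with Cryaa missing from the middle value. Of all 16 crystallin genes, 15 were expressed.

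Crybb2 was the highest protein-coding gene in each of the 3 libraries, with 33630.5, 36677 and 24461 FPKM, which was 13.4%, 14.99% and 11.3% of the nuclear protein-coding sum. The table places it at chr5:113058258-113070117 (mm10). Crybb2 was 1.19 times Cryaa in replicate 1 and 1.01 times Cryaa in replicate 3, so the order of the first places is not separated from the spread between libraries. Cryaa, at chr17:31677931-31681730, was 2.39 and 2.46 times Cryab in those same libraries. Cryab, which is also made as a stress protein outside the lens, had 11799.6, 13173 and 9870.3 FPKM. Its level was above that of every β-crystallin gene other than Crybb2 in all 3 libraries.

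The acidic β-crystallin genes Cryba2 (4535, 5005 and 3645 FPKM) and Cryba1 (4332, 5262 and 3358 FPKM) followed. Their order turned in replicate 2, and the ratio of Cryba2 to Cryba1 was 1.05, 0.951 and 1.09. Lower came Crybb3 with 1769, 2366 and 1676 FPKM, Cryba4 with 1311, 1589 and 956 FPKM and Crybb1 with 968.5, 1176 and 824.045 FPKM. Each of the 6 β-crystallin genes had its highest value in replicate 2 and its lowest in replicate 3, which are the commonest places over all expressed genes too (56.8% and 58.3%). Crybb2 alone held 72.3% of the summed medians of the β-crystallins.

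The γ-crystallins spread over the widest range of levels. Crygs, the member known for its expression in the adult lens cortex, had 3456, 3910.0 and 2777 FPKM and held 76.1% of the summed medians of its class. Next were Crygc with 352, 444 and 416 FPKM and Crygb with 318, 345 and 310.0 FPKM, in the same order in all 3 libraries. Crygd had 109, 202 and 232 FPKM and Crygn had 99.6, 135 and 111 FPKM. The lowest were Cryge with 10.97, 15.4 and 22.6 FPKM, Crygf with 11.9, 15.1 and 22.2 FPKM and Cryga with 2.57, 6.73 and 6.02 FPKM. Crygs and Crygb were lowest in replicate 3, whereas Crygc, Crygd, Crygn, Cryge, Crygf and Cryga were lowest in replicate 1. Cryge and Crygf did not separate, their ratio being 0.921, 1.02 and 1.02.

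The clustered γ-crystallin genes share stretches of sequence with each other or with another gene, which bears on how finely their reads can be assigned. In the longest annotated coding transcripts, 47.7% of the 100-base windows of Cryga, 22.8% of Crygb, 17.8% of Crygc, 18.6% of Cryge, 15.8% of Crygd and 11.9% of Crygf occur in a transcript of another gene. For Cryga the largest part is shared with the predicted gene Gm28845. How far this affects their single values was not tested, so these values are uncertain. No window of the α- and β-crystallin transcripts, nor of Crygs or Crygn, was shared. The positions that the table gives for Crybb2, Cryab, Cryba4, Crybb1, Crygs and Crygn span a second gene as well, and how fragments of overlapping genes were assigned is not given in the sources used here.

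The bases just before the start of some crystallin genes are shown because these genes reach levels from 2.57 FPKM (Cryga) to 36677 FPKM (Crybb2) in 1 tissue. Each line gives the 100 bases before the start used by the RefSeq promoter entry. They run 5′ to 3′ on the strand of the gene, in build GRCm38.p6. For Crybb1 and Cryge this start lies inside the RefSeq span of the gene, so it is not the outermost one. The same holds for Crybb3, Cryba2 and Cryba4, which are named below without their bases. Other starts were not searched. Capitals mark TATAAA or TATATA where its first base lies 40 to 20 bases before the start, the usual place of a TATA box.

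Crybb2 promoter, chr5:113070118-113070217, minus strand: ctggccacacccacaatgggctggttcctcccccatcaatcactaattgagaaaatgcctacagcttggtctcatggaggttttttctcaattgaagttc
Cryaa promoter, chr17:31677831-31677930, plus strand: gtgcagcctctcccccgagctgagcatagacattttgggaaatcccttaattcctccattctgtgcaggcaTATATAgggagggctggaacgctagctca
Cryba1 promoter, chr11:77725294-77725393, minus strand: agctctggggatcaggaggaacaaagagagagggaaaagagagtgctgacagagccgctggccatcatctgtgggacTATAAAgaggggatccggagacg
Crybb1 promoter, chr5:112255720-112255819, plus strand: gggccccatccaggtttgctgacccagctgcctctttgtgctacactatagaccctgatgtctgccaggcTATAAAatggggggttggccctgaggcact
Crygs promoter, chr16:22811411-22811510, minus strand: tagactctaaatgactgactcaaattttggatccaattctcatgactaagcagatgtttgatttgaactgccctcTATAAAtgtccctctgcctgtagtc
Crygc promoter, chr1:65073533-65073632, minus strand: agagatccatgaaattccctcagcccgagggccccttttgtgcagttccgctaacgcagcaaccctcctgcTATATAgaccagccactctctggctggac
Crygd promoter, chr1:65063441-65063540, minus strand: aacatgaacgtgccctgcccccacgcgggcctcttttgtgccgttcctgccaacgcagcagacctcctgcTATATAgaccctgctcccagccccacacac
Cryge promoter, chr1:65051164-65051263, minus strand: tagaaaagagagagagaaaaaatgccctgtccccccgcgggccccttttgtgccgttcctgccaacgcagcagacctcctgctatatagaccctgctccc
Crygf promoter, chr1:65926422-65926521, plus strand: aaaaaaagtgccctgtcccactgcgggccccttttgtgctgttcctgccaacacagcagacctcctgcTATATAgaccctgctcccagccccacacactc

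Crybb2, the highest gene, held neither motif in this window, nor did Cryba2, Crybb3 and Cryba4, whose bases are not shown, whereas Cryba1, Crybb1 and Crygs held TATAAA and Cryaa, Crygc, Crygd and Crygf held TATATA. Crygd and Cryge shared a stretch of 56 identical bases before their starts and Cryge and Crygf shared 33, although the level of Crygd was several times that of the other two in each library. In Cryge that stretch lies closer to the annotated start, so its TATATA falls outside the window searched. Among genes with exactly 1 promoter in the RefSeq table, TATAAA in the window on the strand of the gene was found in 3 of 15 crystallin promoters (20%), in 4 of 47 of the 100 highest genes other than crystallins (8.51%), in 1.03% of 5243 expressed genes and in 2.42% of all 22862 promoters. Of 7536 protein-coding genes under 2 FPKM in every library, 4.72% held TATAAA, more than of the expressed genes. TATATA was found in 0.458% of expressed genes, in 1.96% of those low genes and in 1.115% of all promoters. It was found in 0 of the 47 other high genes and in 7 of 15 crystallin promoters (46.7%). These 7 were Cryaa, Crygn and the clustered Cryga, Crygb, Crygc, Crygd and Crygf. The clustered genes are of 1 family, and Crygd and Crygf shared a stretch of 45 bases before their starts. Matches in the clustered genes are therefore not independent cases. Cryga and Crygb shared at most 14 and 10 bases with another clustered gene. A match is a description of the letters, not a site shown to be bound. The promoter of Cryab was not in the table.

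TGCTGA, the core of the site bound by large Maf factors, was searched on both strands of the 250 bases before the start. It occurred in 10 of 15 crystallin promoters (66.7%) and in 10 of 47 of the other genes among the 100 highest (21.3%). The share was 12.3% of expressed genes, 17.3% of protein-coding genes under 2 FPKM in every library and 16.0% of all promoters. Crybb2, Crygb, Crygd, Cryge and Crygf lacked it.

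**Figure D2:**
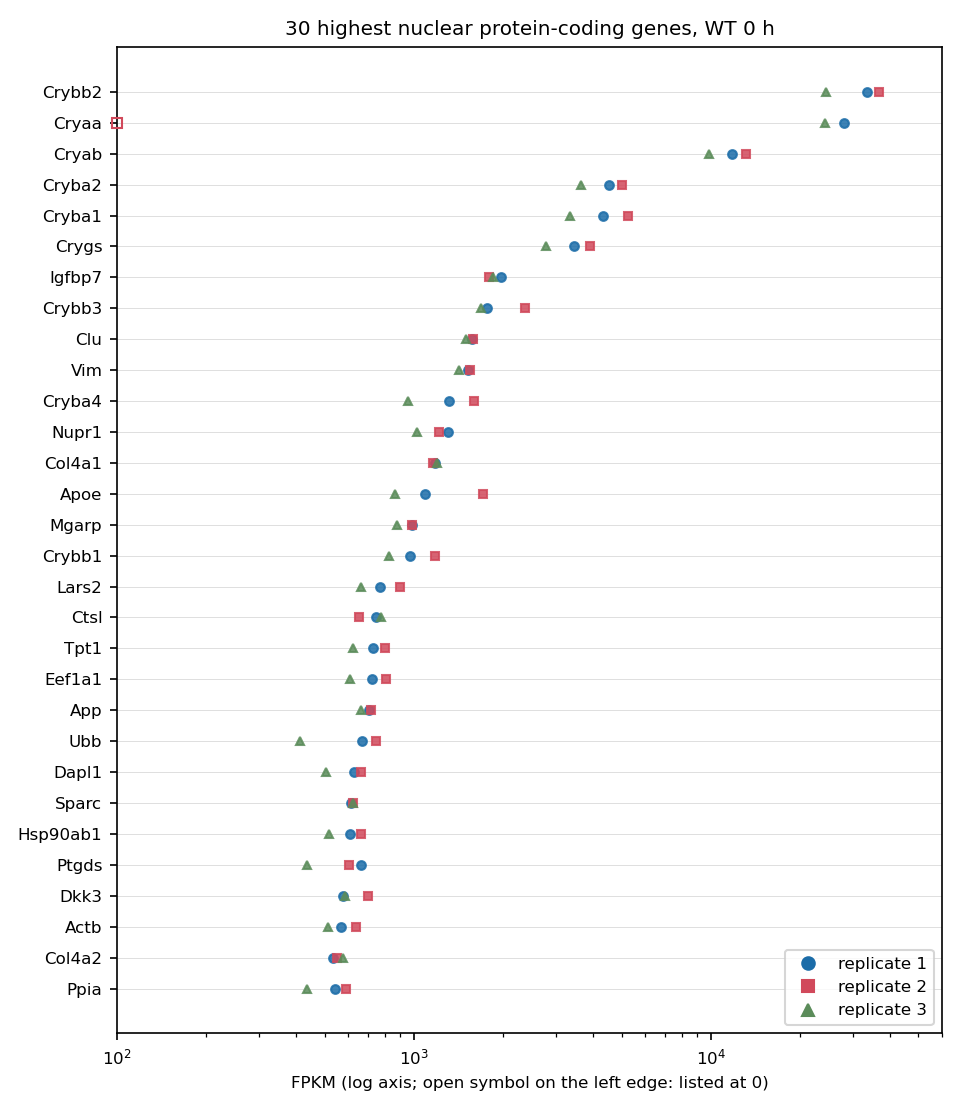
FPKM (log axis) of the 30 nuclear protein-coding genes with the highest median, 1 symbol per library. Crybb2 leads in each library, crystallins hold 9 of the 30 places, and the open symbol marks Cryaa, listed at 0 in replicate 2.

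Below the leading crystallins stood secreted, matrix and cytoskeletal genes. Igfbp7, a secreted protein that binds insulin-like growth factors, had 1962, 1796 and 1841 FPKM. Clu, an extracellular chaperone, had 1565, 1586 and 1500.3 FPKM and Vim, the intermediate filament protein of lens epithelium and young fibers, had 1519.8, 1543 and 1417 FPKM. Each of these moved less between libraries than the crystallins around them. Nupr1, a small nuclear protein of the stress response, had 1304, 1211 and 1028 FPKM, and Mgarp, a mitochondrial protein, had 989, 988 and 878 FPKM. Apoe, a lipid carrier that retinal glia also make, was less even, with 1087, 1709 and 862 FPKM.

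Genes of protein handling and of general cell function filled most of the other places. They were the lysosomal protease gene Ctsl (745, 652 and 775 FPKM), the ubiquitin gene Ubb (670.4, 745 and 414 FPKM), the chaperone gene Hsp90ab1 (611, 661 and 519 FPKM) and the prolyl isomerase gene Ppia (544, 591 and 438 FPKM). Translation was represented by Eef1a1, an elongation factor gene, with 722, 803 and 608 FPKM, by Tpt1 with 730.1, 797 and 624 FPKM and by Lars2, a mitochondrial tRNA synthetase gene, with 770.2, 901 and 661 FPKM. Actb, cytoplasmic actin, had 570.2, 636 and 513 FPKM. Of these, Ubb, Tpt1, Eef1a1 and Ppia share 52.4%, 39.3%, 26.7% and 24.1% of their 100-base windows with other genes, most often with a pseudogene or predicted gene. The list was completed by App, the amyloid precursor gene (708, 718 and 666 FPKM), Dapl1 (627, 665 and 507 FPKM), the matricellular gene Sparc (612, 624 and 622 FPKM), Ptgds, a prostaglandin D synthase (662, 606 and 435 FPKM), and by Dkk3, Col4a1 and Col4a2.

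The order of the 30 was loose. Of 29 pairs of neighbors in rank, 8 kept their order in all 3 libraries, counting the listed 0 of Cryaa, and 3 had ranges that did not overlap: Cryab above Cryba2, Crygs above Igfbp7 and Crybb3 above Clu. From the tenth place down no neighbors were separated by more than the spread between libraries. The genes of the 100 highest were also short. The longest coding transcript had a median of 1794 bases and 6 exons among 99 of them with an annotation, against 3285.5 bases and 10 exons among expressed genes and 780.5 bases and 4 exons among crystallins.

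Beaded filaments, membrane proteins and other genes of fiber maturation were expressed in 17 of 20 cases. Vim and the 2 beaded filament genes led, with Bfsp1 at 326, 304 and 210.0 FPKM and Bfsp2 at 303, 317 and 227 FPKM. The ratio of Bfsp1 to Bfsp2 was 1.07, 0.961 and 0.925, so neither was above the other beyond the spread. Mip, the water channel of fiber membranes, had 266, 250.3 and 259 FPKM. Grifin, a galectin-like lens protein, had 250.3, 316 and 211 FPKM and Lim2, a fiber membrane protein, had 134, 125 and 118 FPKM.

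Of 20 connexin genes, 3 were expressed. Among them, Gja3, a connexin of fibers, had 123, 121 and 116 FPKM and Gja1, the connexin of the epithelium, had 109.8, 119 and 106 FPKM. Gja3 was above Gja1 in 3 of 3 libraries, but only by 1.119, 1.02 and 1.09 times. Gjc1, under the threshold in 2 libraries, had 1.30, 2.77 and 1.70 FPKM, and 16 of 20 stayed under 2 FPKM in every library. Gjb1 was listed at 0 in all 3.

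Of 12 aquaporin genes, which encode water channels, 4 were expressed. Mip held 74.8% of the summed medians of the 12. Aqp1, the channel of the lens epithelium, had 38.3, 38.6 and 56.1 FPKM, Aqp5 had 37.8, 24.2 and 21.7 FPKM and Aqp4 had 22.3, 26.6 and 22.96 FPKM. Aqp1 was highest in replicate 3 and Aqp5 in replicate 1, and these 3 genes were not in the same order in every library. The other 8 genes were under 2 FPKM throughout, Aqp6 being listed at 0 in all 3 libraries.

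**Figure D3:**
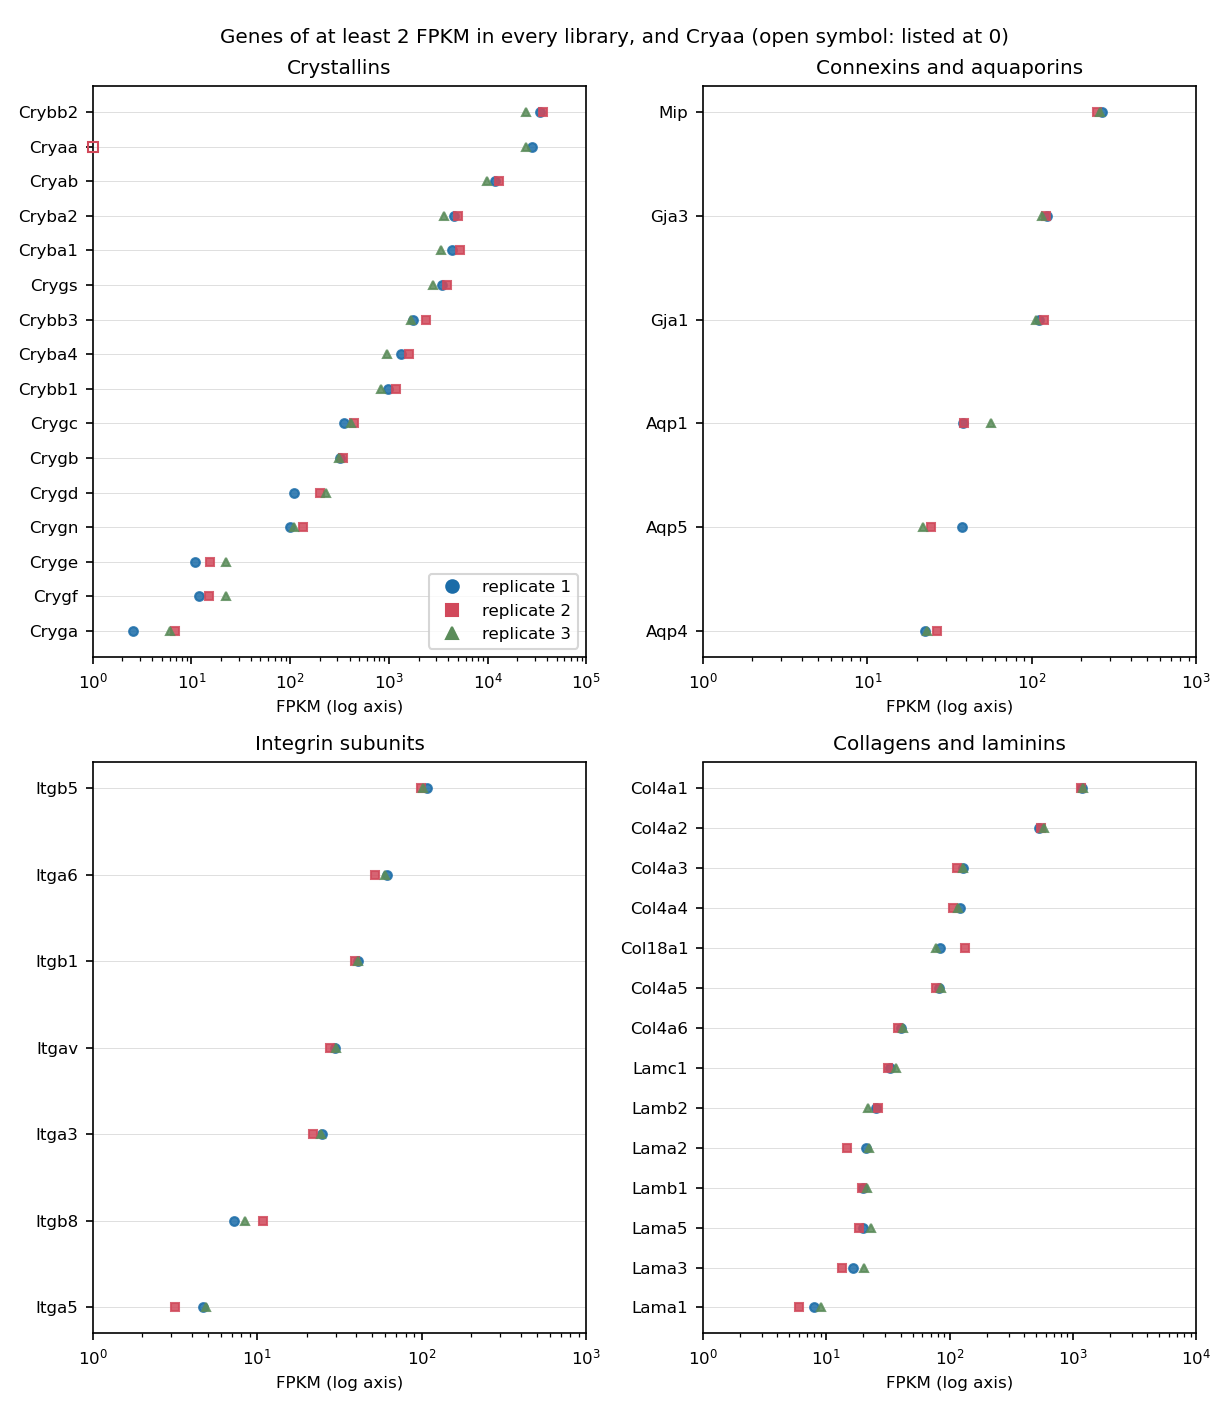
FPKM (log axis) of expressed members of 4 groups of gene families, with Cryaa added, 1 symbol per library. Crystallins run from 2.57 FPKM for Cryga to 36677 FPKM for Crybb2, integrin genes from 3.16 FPKM for Itga5 to 107 FPKM for Itgb5, and Col4a1 stands at the top of the matrix genes with all 3 symbols nearly on each other.

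The capsule is rich in type IV collagen, and its genes were high and even. Col4a1 had 1176, 1163 and 1195 FPKM and Col4a2, whose chain joins it in the common network, had 533, 553 and 579 FPKM. The ratio of Col4a1 to Col4a2 was 2.21, 2.105 and 2.06. Col4a3 had 128, 115 and 129 FPKM and Col4a4 had 121, 106 and 116 FPKM, a ratio of 1.06, 1.09 and 1.11. Col4a5 had 81.5, 77.1 and 84.6 FPKM and Col4a6 had 39.98, 37.9 and 41.6 FPKM, so all 6 chains were expressed. Col18a1, the source of endostatin, had 84.3, 133 and 76.9 FPKM. Col15a1 did not reach 0.5 FPKM.

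Laminins, the other network of basement membranes, were expressed from 7 of 11 genes at lower levels. The γ chain gene Lamc1 had 32.9, 31.7 and 36.8 FPKM. The β chains were Lamb2 with 25.1, 26.3 and 21.9 FPKM and Lamb1 with 19.8, 19.5 and 21.4 FPKM. Among α chains, Lama2 had 21.1, 14.7 and 22.3 FPKM, Lama5 had 19.8, 18.5 and 23.2 FPKM, Lama3 had 16.4, 13.5 and 20.2 FPKM and Lama1 had 7.93, 6.06 and 8.996 FPKM. These 4 α chain genes were lowest in replicate 2, and the share of all expressed genes lowest there was not computed. Lama2 and Lama5 overlapped in range. Lamb3, Lamc3 and Lama4 were under 1 FPKM.

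Other capsule genes were led by Sparc, then Nid1 (nidogen, 265, 255 and 287 FPKM) and Hspg2 (perlecan, 119, 114 and 135 FPKM), both linkers of the laminin and collagen networks. Npnt, a ligand of integrins, had 47.1, 51.1 and 49.96 FPKM. Efemp1 (32.5, 65.2 and 35.98 FPKM) and Fbn1 (35.5, 61.2 and 35.1 FPKM), genes of elastic and zonular fibers, were highest in replicate 2. Of 17 genes in this list, 15 were expressed. Fn1, the fibronectin gene, was low at 3.29, 2.13 and 2.84 FPKM, and Tnc, the tenascin C gene, was at 0.263, 0.991 and 0.559 FPKM; both were chosen for mention after their values were seen.

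Integrins link the cells to this matrix, and an α and a β subunit form each receptor. Of 18 α subunit genes, 4 were expressed. Itga6, a laminin receptor subunit, had 61.3, 52.2 and 60.04 FPKM. Itgav, the partner of several β subunits, had 29.9, 27.7 and 30.04 FPKM. Itga3 had 24.7, 21.9 and 24.4 FPKM and Itga5, the fibronectin receptor subunit, had 4.66, 3.16 and 4.90 FPKM. Itga6 was 2.05, 1.89 and 2.00 times Itgav. All 4 expressed α subunit genes had their lowest value in replicate 2, and the share of all expressed genes lowest there was not computed. Itga7 came next with 1.86, 1.47 and 3.27 FPKM.

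Of 8 β subunit genes, 3 were expressed. Itgb5 had 107, 98.8 and 102 FPKM and Itgb1, which pairs with most of the α subunits, had 41.1, 39.4 and 41.2 FPKM. Itgb5 was 2.60, 2.51 and 2.48 times Itgb1. Itgb8, the gene at the center of the study, at chr12:119162803-119238276 (mm10), had 7.26, 10.8 and 8.42 FPKM, rank 4027 among nuclear protein-coding genes. Itgb5 was 14.7, 9.16 and 12.1 times Itgb8, and Itgav was 4.11, 2.57 and 3.57 times Itgb8. Itgb8 had its highest value in replicate 2, as did 56.8% of all expressed genes, and the other 6 expressed integrin genes did not. Itgb3, with 0.1, 0.0163 and 0.0691 FPKM, and Itgb6, with 0.104, 0.109 and 0.0289 FPKM, which encode further partners of the αV subunit, were close to 0, and Itgb2, Itgb4 and Itgb7 did not reach 0.4 FPKM.

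The regulators of lens identity were broadly present, 28 of 33 lens transcription factor genes being expressed. Prox1, which fibers need to elongate, had 98.4, 96.2 and 88.2 FPKM, and the order of Prox1 and Pax6 turned between libraries, with a ratio of 1.11, 1.08 and 0.944. Below Foxe3 came Maf (46.2, 44.7 and 40.6 FPKM), Tfap2a (43.6, 39.6 and 43.9 FPKM), Pitx3 (32.3, 34.1 and 32.9 FPKM) and Six3 (28.9, 29.6 and 25.4 FPKM). Their values differed by less than 1.2 times between the lowest and highest library. A middle group held Mafg (27.01, 26.1 and 26.9 FPKM), Mab21l1 (26.9, 27.98 and 25.9 FPKM), Zeb2 (26.8, 28.3 and 24.9 FPKM), Sox2 (20.3, 22.6 and 22.6 FPKM), Meis2 (18.8, 19.9 and 20.04 FPKM) and Sox1 (14.6, 15.3 and 17.7 FPKM). Small Maf proteins such as Mafg lack an activation domain of their own.

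Lower lens regulators included Etv5, Rara, Meis1 and Mafk, with medians of 12.01, 11.9, 8.63 and 6.94 FPKM. Hsf4, the heat shock factor of fibers, had 6.19, 9.17 and 5.32 FPKM and Mab21l2 had 6.14, 10.7 and 5.76 FPKM. Eya1, Msx2, Rxra, Six5, Rarb, Etv1, Gata3 and Six6 had medians from 2.71 to 6.08 FPKM. Six6, which the retina also uses, had 2.71, 5.68 and 2.34 FPKM. Otx2, a retinal and pigment epithelial regulator, was at 1.52, 4.68 and 0.577 FPKM, and Pax2 was listed at 0 in all 3 libraries. Tfap2b, Etv4 and Mafa were under 2 FPKM.

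Of the TGF-β ligands, Tgfb2 was the highest, with 80.8, 81.8 and 86.7 FPKM against 13.8, 11.4 and 13.2 FPKM for Tgfb1 and 3.82, 5.41 and 2.58 FPKM for Tgfb3. Tgfb2 was 5.85, 7.18 and 6.57 times Tgfb1. TGF-β is secreted bound to latency proteins and needs release before it signals. The latency genes Ltbp3 (47.97, 52.3 and 41.6 FPKM), Ltbp2 (16.6, 31.9 and 17.7 FPKM) and Ltbp1 (16.6, 23.2 and 16.5 FPKM) were expressed. So were Skil (18.1, 15.3 and 11.6 FPKM) and Ski (15.7, 14.7 and 13.4 FPKM), which dampen SMAD signaling. The receptor gene Tgfbr1 had 6.57, 6.17 and 5.93 FPKM, while Tgfbr2, its signaling partner, was under the threshold in 2 libraries with 1.54, 1.33 and 2.005 FPKM. In all, 14 of 18 genes of the list were expressed.

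BMP pathway genes were expressed in 16 of 24 cases. The target genes Id3 (44.7, 60.1 and 34.7 FPKM), Id2 (34.1, 34.6 and 28.9 FPKM) and Id1 (23.7, 30.7 and 24.2 FPKM) were high. Bmp7 was the highest ligand gene with 16.7, 20.7 and 17.9 FPKM, while Bmp1 (24.5, 21.7 and 28.4 FPKM) encodes a protease despite its name. The receptor gene Bmpr2 had 13.005, 13.3 and 12.2 FPKM. Of the 3 antagonist genes on the list, Grem1 was at 1.40, 0.211 and 0.112 FPKM, and Chrd and Nog did not reach 0.5 FPKM.

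FGF signaling, which drives fiber differentiation, was seen mainly in its receptors. Fgfr2 had 41.9, 37.8 and 48.8 FPKM, Fgfr1 had 39.2, 34.5 and 40.5 FPKM and Fgfr3 had 33.6, 28.6 and 37.6 FPKM. Fgfr2 exceeded Fgfr1 in 3 of 3 libraries, by 1.07, 1.098 and 1.21 times, and Fgfr1 exceeded Fgfr3 in 3 of 3. Fgfr4 did not reach 0.2 FPKM. The decoy receptor gene Fgfrl1 (10.2, 9.55 and 8.59 FPKM) and the feedback inhibitor genes Spred1 (10.96, 7.78 and 8.41 FPKM) and Spred2 (9.53, 8.01 and 8.33 FPKM) followed, and 12 of 21 genes in this list were expressed. In the EGF list, Hbegf led 4 expressed of 12 genes with 48.99, 32.98 and 39.9 FPKM, ahead of Egfr (6.97, 7.09 and 5.68 FPKM), Erbb4 (2.65, 3.64 and 4.05 FPKM) and Erbb2 (3.40, 3.45 and 3.40 FPKM).

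Among 35 genes of Wnt ligands, receptors and antagonists, 14 were expressed, close to the 40.5% of all nuclear protein-coding genes. The highest were the secreted glycoprotein gene Dkk3 and the secreted antagonist gene Sfrp1 (131, 126 and 129 FPKM). The ligand Wnt7b had 71.5, 65.8 and 67.2 FPKM, well above Wnt5b (14.1, 14.96 and 17.05 FPKM) and Wnt7a (13.5, 12.6 and 12.8 FPKM). The co-receptor gene Lrp6 had 15.6, 16.9 and 16.6 FPKM. Dkk3 held 65.8% of the summed medians of the list.

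For Notch, 6 of 14 genes were expressed, also close to the 40.5% of all nuclear protein-coding genes. They were Notch2 (24.95, 25.8 and 26.5 FPKM), Jag1 (10.8, 10.3 and 13.5 FPKM), Hes1 (9.78, 8.16 and 12.1 FPKM), Notch1 (9.16, 7.72 and 9.84 FPKM), Hey1 (7.56, 8.57 and 9.02 FPKM) and Dll1 (5.03, 3.70 and 2.52 FPKM). Dll3 was listed at 0 in all libraries. Of 22 genes of Eph receptors and ephrins, which guide contacts between cells, 9 were expressed, again close to that share. The ligand Efnb2 (20.3, 20.7 and 23.8 FPKM) led, with Efna1 (17.4, 13.1 and 14.5 FPKM), the receptor gene Epha2 (18.5, 11.6 and 12.1 FPKM), Efna5 (10.98, 12.4 and 11.5 FPKM), Efnb1 (11.8, 8.37 and 10.3 FPKM) and Ephb4 (8.94, 7.92 and 9.94 FPKM) behind it. Epha2, whose variants cause cataract, was highest in replicate 1.

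Both main cadherins were expressed. Cdh2 had 63.98, 66.1 and 71.1 FPKM and Cdh1, which marks the epithelium, had 58.7, 55.6 and 63.05 FPKM. Cdh2 was 1.09, 1.19 and 1.13 times Cdh1. Their partner β-catenin, from Ctnnb1, had 69.8, 71.4 and 64.2 FPKM, and the α-catenin genes Ctnna1 (47.99, 51.4 and 41.004 FPKM) and Ctnna2 (24.5, 28.6 and 19.7 FPKM) and Ctnnd1 (20.8, 19.7 and 17.1 FPKM) were also among 10 expressed of 14. Of 16 keratin and intermediate filament genes, 9 were expressed. Vim held 91.8% of their summed medians. Next were Lmna (52.8, 31.6 and 47.2 FPKM), Krt19 (35.2, 39.7 and 35.7 FPKM), Gfap (21.5, 14.8 and 10.6 FPKM), Nes (8.92, 14.7 and 15.6 FPKM) and Lmnb1 (9.08, 11.05 and 10.4 FPKM).

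Genes of ion transport and energy use were high. Of 8 sodium pump subunit genes, 6 were expressed. Among the β subunits Atp1b3 had 255, 269 and 277 FPKM and Atp1b1 had 70.7, 66.3 and 62.4 FPKM. Atp1b2, abundant in neurons and photoreceptors, had 26.3, 57.2 and 15.5 FPKM. Atp1b4 was listed at 0 in all libraries.

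Slc2a1, the GLUT1 glucose transporter, had 168, 159 and 148 FPKM and held 96.2% of the summed medians of 11 glucose transporter genes. No other member was expressed, the nearest being Slc2a8 with 2.26, 1.86 and 2.16 FPKM. Of 26 glycolysis genes, 19 were expressed, with Eno1 (407, 513 and 349 FPKM), Aldoc (297, 298 and 247 FPKM), Aldoa (275, 296 and 216 FPKM), Pkm (258, 268 and 206 FPKM), Ldha (111, 119.5 and 90.8 FPKM) and Gapdh (104, 115 and 84.3 FPKM) the highest. Aldoc, better known from brain, was above Aldoa in 3 of 3 libraries, but only by 1.08, 1.01 and 1.15 times. Pgk2 and Ldhc, which are testis forms, were listed at 0.

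Antioxidant defense, which protects long-lived lens proteins, had 33 of 37 genes expressed. Gstm1, a glutathione transferase, had 429, 407 and 411 FPKM. The peroxidase genes Prdx5 (140.0, 141 and 122 FPKM), Gpx3 (131, 141 and 73.7 FPKM) and Gpx4 (136, 131 and 112 FPKM), the superoxide dismutase gene Sod1 (115, 134 and 102 FPKM) and the metallothionein gene Mt1 (76.03, 78.5 and 56.5 FPKM) came next. Gpx3 was lowest in replicate 3. Gpx2 was listed at 0 throughout. Besides the α-crystallins, small heat shock genes were modest, with Hspb1 at 76.5, 60.8 and 45.8 FPKM, Hspb2 at 23.7, 21.3 and 19.5 FPKM, Hspb11 at 15.7, 13.5 and 10.6 FPKM and Hspb8 at 5.59, 4.57 and 3.35 FPKM. Hspb1 was also lowest in replicate 3.

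Proliferation genes were low in level. Of 17, 7 were expressed, close to the 40.5% of all nuclear protein-coding genes, so the count itself was not low. Pcna was the highest by median with 10.9, 12.2 and 10.8 FPKM. The next by median were Mcm7 (3.27, 4.11 and 4.19 FPKM), Mcm2 (3.55, 4.60 and 3.71 FPKM), Mki67 (3.37, 2.78 and 4.63 FPKM), Mcm4 (2.99, 2.03 and 2.58 FPKM) and Mcm3 (2.46, 1.93 and 2.95 FPKM). The whole list summed to 39.1, 38.1 and 41.9 FPKM. The cell cycle inhibitor gene Cdkn1c, which encodes p57, alone had 46.6, 57.6 and 50.3 FPKM. It held 67.1% of the summed medians of the 7 inhibitors, ahead of Cdkn1b (15.8, 14.8 and 13.7 FPKM), Cdkn2c (4.11, 2.98 and 2.87 FPKM), Cdkn2b (2.97, 2.03 and 2.41 FPKM), Cdkn1a (2.41, 2.97 and 1.65 FPKM) and Cdkn2d (2.04, 1.62 and 1.85 FPKM).

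Immediate early genes, which many cells transcribe within minutes of a stimulus, were already present at 0 h and were uneven between libraries. Of 21 genes 16 were expressed, and the list summed to 610, 410 and 231 FPKM. Fos had 83.6, 29.6 and 14.02 FPKM, Jun had 74.4, 51.4 and 22.999 FPKM and Egr1 had 61.9, 42.4 and 8.96 FPKM. Dusp1 had 33.4, 29.9 and 15.4 FPKM and Atf3 had 46.7, 28.6 and 8.99 FPKM. Jund was more even, with 81.4, 75.8 and 67.9 FPKM. Of the 20 genes above 0 in every library with a median of at least 0.5 FPKM, 19 were highest in replicate 1 and 15 were lowest in replicate 3, and their level in replicate 1 was a median of 2.65 times that in replicate 3. Over all expressed genes that ratio had a median of 1.08, 27.3% of them were highest in replicate 1 and 58.3% lowest in replicate 3. The same library had the highest pigment cell and red blood cell sums, and the part of those cells in these values was not tested.

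**Figure D4:**
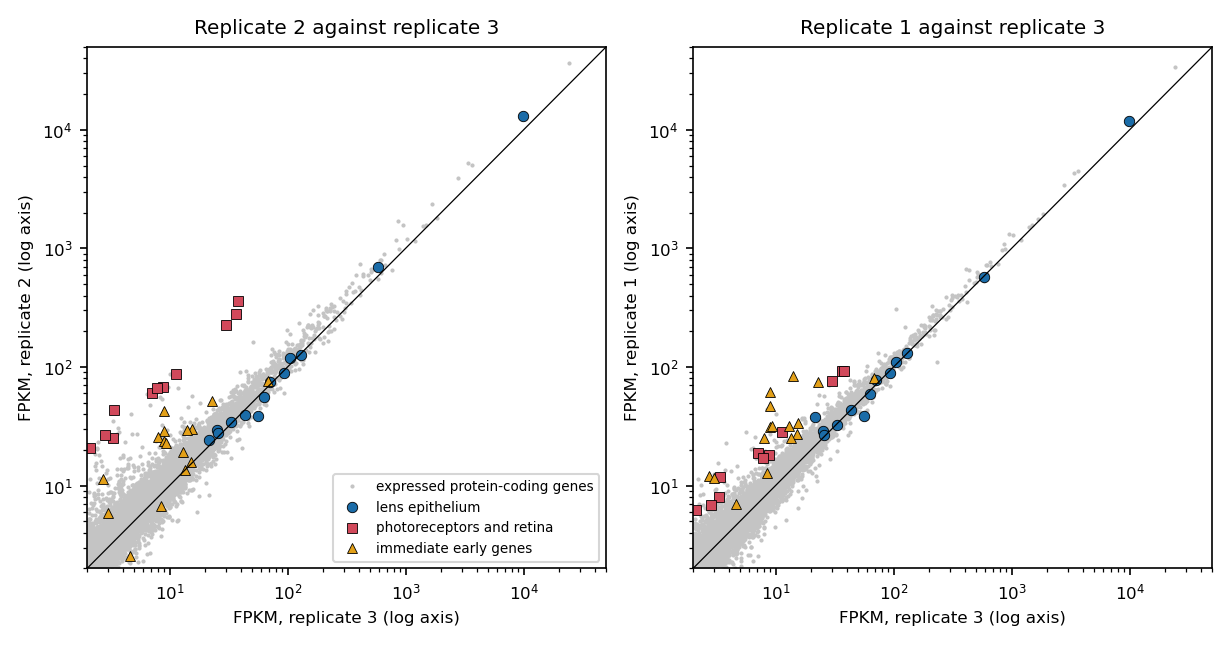
FPKM of expressed nuclear protein-coding genes in replicate 2 (left) and replicate 1 (right) against replicate 3, both axes log, with the line of equal levels and 3 lists marked. Photoreceptor genes lie above the line, most of all in replicate 2 (Sag at 281 against 36.8 FPKM), immediate early genes lie furthest above it in replicate 1 (Fos at 83.6 against 14.0 FPKM), and lens epithelium markers stay near it.

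The 10 nuclear protein-coding genes with the widest range between libraries, among those with a median of at least 10 FPKM, were Cryaa, through its 0, and 9 genes highest in replicate 2 and lowest in replicate 3. Rcvrn (11.8, 43.03 and 3.41 FPKM) had the widest range of these, and Pdc, Rbp3, Sag, Pde6b and Gnat1 are likewise photoreceptor genes. Sncb (11.6, 34.8 and 3.30 FPKM), a synuclein gene, was also among them. Of these 10 genes, 6 were on the photoreceptor list. Among the 50 widest, 32 were highest in replicate 2, 18 in replicate 1 and 0 in replicate 3, beside 56.8%, 27.3% and 15.8% of all expressed genes. Taking the lowest ratio of replicate 2 to replicate 3 found among the 12 photoreceptor markers, which was 7.31, as a limit, 26 expressed genes (0.302%) were at or above it with their highest value in replicate 2. That limit was set after the data were seen.

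Ribosomal protein genes were low in the table. Of 78 such genes, 20 were expressed and 48 were under 2 FPKM in every library, with a median of 1.22 FPKM over the genes, and together they took 0.377%, 0.429% and 0.375% of nuclear protein-coding FPKM. Higher members included Fau (263, 285 and 198 FPKM), which encodes a fusion with a ubiquitin-like protein, Rpl41 (82.6, 90.7 and 72.8 FPKM), Rpl29 (52.1, 55.8 and 42.6 FPKM), Rpsa (26.9, 27.5 and 21.1 FPKM) and Rplp1 (8.84, 9.02 and 7.52 FPKM). By contrast, 5 elongation factor genes and Tpt1, chosen after the values were seen, had a median of 174 FPKM. The share of 100-base windows found in another gene had a median of 32.0% among the 20 expressed ribosomal protein genes and 30.03% among the 48 low ones. Their 301 named pseudogenes summed to 616, 713 and 523 FPKM against 949, 1050 and 814 FPKM for the genes themselves. The reason for the low values was not tested.

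Transcripts that code for no protein took much of the total. Small non-coding RNAs held 36.8%, 43.6% and 33.2% of all FPKM, against 46.3%, 38.2% and 48.7% for nuclear protein-coding genes. The 7SL genes Rn7s2 (39196, 58920.5 and 29361 FPKM) and Rn7s1 (38843, 58275 and 29093 FPKM), parts of the signal recognition particle, exceeded every protein-coding gene in the 3 libraries. They were followed by Rpph1, the RNase P RNA, with 28220.2, 33684 and 18547 FPKM, by Rn7sk with 27639.8, 32949 and 21472 FPKM and by Rny3, a Y RNA, with 16993, 25134 and 11107 FPKM. The mitochondrial ribosomal RNAs Rnr2 (14744, 16711 and 13965 FPKM) and Rnr1 (10035, 11985 and 9481 FPKM), the spliceosomal RNA Rnu1a1 (8924, 14017 and 8395 FPKM), the snoRNA Snord15b (8973, 12595 and 10085 FPKM) and the brain cytoplasmic RNA Bc1 (6779.8, 14041 and 5001 FPKM) completed the 10 highest. All 10 were highest in replicate 2, and all but Snord15b were lowest in replicate 3. RNAs shorter than a sequenced fragment get an FPKM that depends on the length correction, so their levels are less comparable with those of mRNAs.

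**Figure D5:**
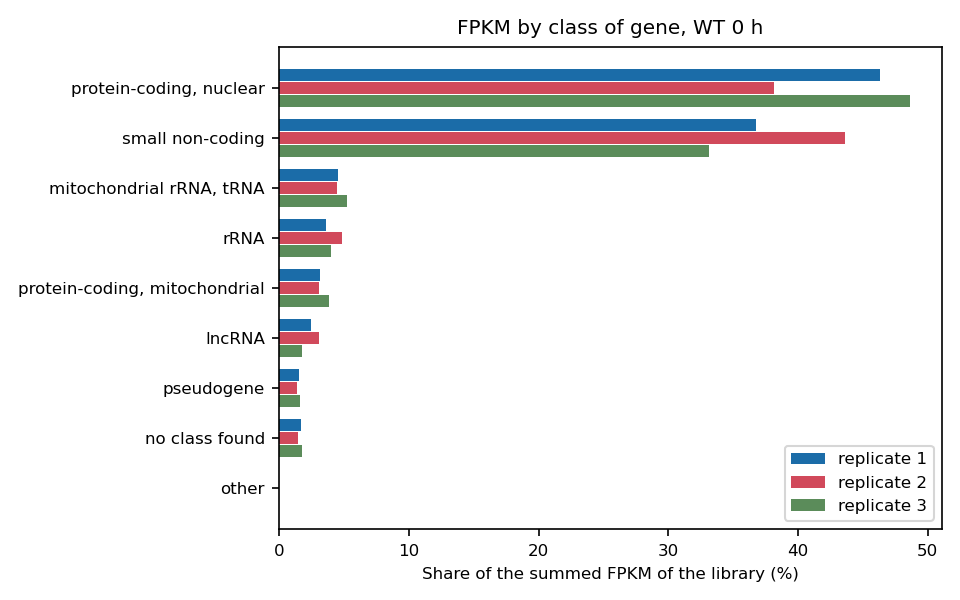
Share of each library's summed FPKM (%) by class of gene, with 1 bar per library starting at 0. Nuclear protein-coding genes hold 38.2% to 48.7% and small non-coding RNAs 33.2% to 43.6%, the latter highest in replicate 2.

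The 13 protein-coding genes of the mitochondrial genome were all expressed and took 3.14%, 3.04% and 3.79% of all FPKM. ATP8 had 3864, 4398 and 3666 FPKM and ATP6, which overlaps it on the same strand, had 3282, 3927 and 3353 FPKM. COX1 had 1333, 1514 and 1251 FPKM and CYTB had 1289.8, 1454 and 1320.5 FPKM. The lowest was ND3 with 415, 454 and 427 FPKM, and each of the 13 stood above the glycolysis genes Aldoa and Pkm in every library. Eno1, the highest glycolysis gene, was above ND3 in replicate 2 with 513 FPKM. As with the short RNAs, ATP8 and ND4L (1815, 2118 and 1999 FPKM) have short coding sequences that overlap a neighbor.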

How the data were processed

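RNA from the 3 WT 0 h samples had been made into stranded total RNA libraries from low input and sequenced as read pairs. The processing notes name cutadapt 1.12, TopHat2 2.1.0, Cuffdiff 2.2.1, FastQC and the builds mm10 and GRCm38.p5; the annotation is not given in the sources used here. The authors deposited FPKM per gene and library as Cuffdiff gave them, and these were used as they stand. Cuffdiff's group values, log2 fold changes, p-values and q values in the same tables were not used, nor were the tables without WT 0 h. The 45859 rows were identical in both tables that hold these libraries.

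Read counts were not used here, so depth is unknown and no counting error can be given. The commonest ratio between FPKM of genes below 0.3 FPKM was assumed to reflect 1 fragment in each library. On that assumption, which was not tested, relative depths were 1, 1.09 and 1.03. Summed FPKM were 543622, 640837 and 446531.

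Gene classes came from RefSeq (GRCm38.p6) symbols for 41144 genes, GENCODE M21 symbols for 784 and unique RefSeq synonyms for 601, on the same chromosome (92.7% in all). Of genes matched by RefSeq symbol, 99.9% overlapped the RefSeq position. Promoter sequences are RefSeq's. Shared windows were exact 100-base matches in the sense of GENCODE M21 transcripts. Ranks use the median of the libraries, spreads use log2(FPKM + 1), and errors are SDs over 3 libraries. No test was made. Calculations used Python 3.11.15, pandas 2.3.3 and numpy 2.4.6, and were tested on simulated data.

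The 39 lists and the rule for named genes were chosen with earlier results of these data known. The rule names the 30 highest protein-coding genes, expressed members of the lens families, up to 6 of each other family, the 2 highest of each marker list, the 10 widest ranges and the 10 highest other RNAs. Further genes in the text, such as low family members, defining markers near 0 and members described beside a pattern, were chosen after their values were seen. Alternatives covered thresholds, ranking, totals, the pseudocount and each library left out. A few genes that the rule would name are left out and are not reported here.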

Additional observations from a re-analysis of the deposited data

How the results depend on the processing

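No value rests on a test. No paired analysis was possible because the results come from no test. The 8618 expressed genes became 8755 to 8963 without 1 library, 10305 and 11559 at thresholds of 1 and 0.5 FPKM, and 9277 and 9364 when the median or mean had to reach 2 FPKM. The listed 0 of Cryaa in replicate 2 had most effect on the shares. With Cryaa left out of share and total, the 10 highest genes took 28.6% in place of 33.5%, the 100 highest 43.8% in place of 48.0%, crystallins 27.3% in place of 32.8%, and ribosomal protein genes 0.425% in place of 0.393%. A total over expressed genes only, which drops Cryaa for its 0, gave 29.5% for the 10 highest. Without 1 library in turn, the share was 31.8% to 35.6% for the 10 highest, 46.7% to 49.7% for the 100 highest, 31.2% to 34.8% for crystallins and 0.376% to 0.402% or 0.403% for ribosomal protein genes. The median spread was 0.13 to 0.17. Of the 30 highest genes, 28 or 29 were shared with every other ranking tried, by the mean, the lowest library, after scaling to the same sum, or without 1 library. Counts of expressed members stayed within 1.5 times for 34 of 39 lists at 0.5 FPKM and 36 at 1 FPKM. The macrophage list (2 expressed) had 5 when replicate 3 was left out, and the glucose transporter list (1 expressed) had 2 without replicate 2.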
